A study of Homo sapiens with 18 samples.

Results

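The 42 genes described here encode the core machinery of DNA replication: origin licensing, the replicative helicase and its activation, the polymerases and primase, the sliding clamp and its loader, and the enzymes that supply deoxynucleotides. They were chosen by symbol, from what their products do and not from their measured values, though earlier results of these data were known. Each symbol was matched to its row in the deposited count table. All 42 were found, and all 42 passed the filter on low counts, among 15318 genes tested. Their mean level ran from 4.52 CPM (counts scaled to a common library size and between libraries by the TMM method) for POLE2 to 225 CPM for MCM4. RRM2 matched 2 rows, of which the row holding 1101 to 2700 counts per sample was used and the other held 1 to 18.

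Expression was measured in PEO1, a human ovarian cancer cell line that the series title describes as carrying mutant p53. Cells were transfected with siControl, a control siRNA, or with sip53, which targets p53. Each was followed by no estradiol (0 h) or by 10 nM estradiol (E2) for 2 h or 8 h, and all 6 groups were first kept in hormone-depleted medium. Each group held 3 samples, 18 in all, and the libraries read the 3′ ends of transcripts. The labels name 1 reagent labelled sip53 and 1 cell line, so effects of p53 loss cannot be told apart from effects of the reagent. They do not state that replicates are separate cultures, so p-values cover only the spread among the samples at hand, part of which may be technical.

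Replication starts at origins that the origin recognition complex (ORC) marks, where CDC6 and CDT1 load the ring-shaped MCM helicase before S phase. Kinases then switch the helicase on with CDC45 and the GINS complex, polymerase alpha-primase lays down primers, and polymerases delta and epsilon extend them while held by the PCNA clamp, which the RFC complex loads. Transcription of many of these genes rises at the G1/S boundary through E2F factors, and in estrogen-responsive tumour cells estradiol is known to drive cells through that boundary.

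Total counts per sample were 7542457 to 10132570 in siControl and 9225939 to 11307199 in sip53. The lowest count of any of the 42 genes in any sample was 22, for POLE2. Between samples of a group the biological coefficient of variation, the spread beyond counting error, was 15.2%. Of the markers of ovarian carcinoma and epithelium, PAX8 lay at 96.1 to 149 CPM and EPCAM at 435 to 658 CPM, while SOX17 was at 0 in every sample. Of the 13 tested, 5 were higher in sip53 on average and none lower: KRT19 (0.59 ± 0.05, adjusted p = 4.65e-08), KRT7 (0.44), KRT18 (0.38), KRT8 (0.33) and WT1 (0.53). KRT19, KRT7 and KRT18 were called at each of the 3 times, and the part of these markers in the results was not tested. The leukocyte markers PTPRC and CD3E and the fibroblast markers COL1A2, COL3A1, DCN and LUM were at 0 in every sample. The 6 leukocyte markers summed to 9.21 to 19.9 CPM, nearly all of it CD68 (5.01 to 11.5 CPM) and CD14 (4.01 to 9.12 CPM), neither of which was called on average. The 7 fibroblast markers summed to 4.64 to 13.3 CPM, nearly all of it COL1A1, which was higher in sip53 on average (log2 0.45 ± 0.15, adjusted p = 0.0194), and its part in the results was not tested. Libraries at 0 h stood apart in each arm. In a principal component analysis siControl 0 h replicate 2, the shallowest library, lay at -41.7 on the second component, where the others ran from -28.1 to 36.1. The library sip53 0 h replicate 1 lay at -3.1 on the first component, between the siControl samples (-49.9 to -10.6) and the other 8 sip53 samples (18.8 to 44).

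The first comparison asked how the sip53 siRNA changed the replication genes. They did not move as a block: genes of single complexes moved in opposite directions. Averaged over the 3 times, 9 of the 42 genes were higher in sip53 (21.4%, against 16.1% of all genes tested) and 10 were lower (23.8%, against 18.5% of all genes), by edgeR's quasi-likelihood test with a Benjamini-Hochberg adjusted p under 0.05. Both shares were near those of all genes, and 23 of the 42 did not pass. The median log2 fold change of the 42 was 0.04, against 0.01 over all genes. The 5 largest falls were in RFC3, POLA1, PRIM1, POLD3 and DBF4, by 34.6% to 40.8%. The rises were smaller and reached 33.5% for POLA2. In bulk RNA, fewer cells in one state and less RNA per cell cannot be told apart.

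At single times fewer genes passed. At 0 h TYMS was higher, 1 of 42 (3.98% of all genes were higher), and POLA1 and POLD3 were lower (5.14% of all genes). At 2 h none of the 42 was higher by edgeR (4.42% of all genes), and DBF4, POLD3 and POLA1 were lower (7.79% of all genes). Of the 42, 16 had an unadjusted p under 0.05 in either direction, against 4101 of all 15318 genes, and DESeq2 called 1 higher. At 8 h POLA2 was higher (2.81% of all genes) and DBF4, RFC3, PRIM1, POLD3 and POLA1 were lower (6.14% of all genes). POLA1 and POLD3 were lower at all 3 times, which use separate libraries. They were the 2 of 42 genes called at all 3 times, against 575 of all 15318 genes tested. The 8 h call of POLA1 was lost when transcript length and GC content were taken out as an offset (adjusted p = 0.0653). The average over times uses the same libraries as the single times and is not independent of them. The fold changes of 17 of the 42 genes were above 0 at all 3 times and those of 15 were below 0 at all 3, together 76.2%, against 61.2% of all genes.

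**Figure D1:**
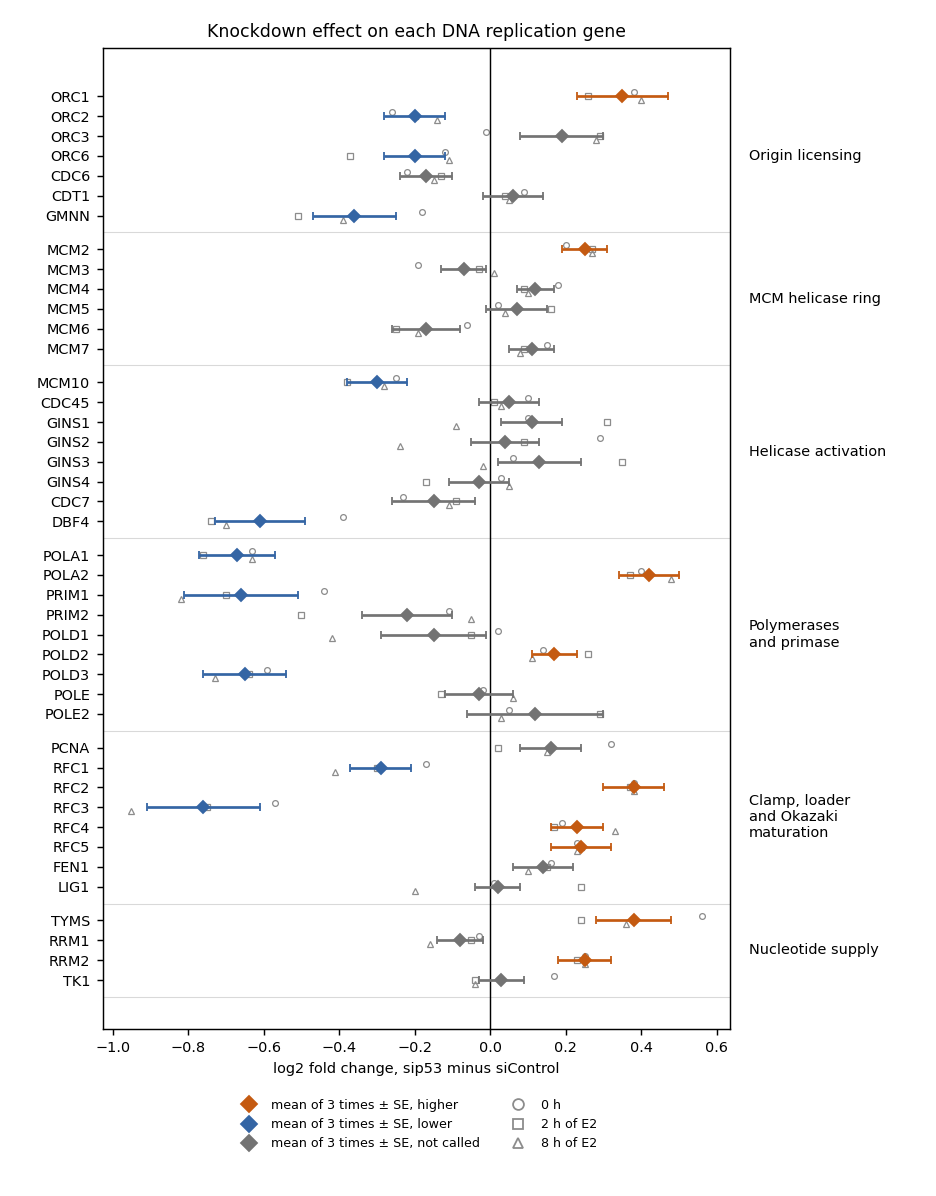
Log2 fold change of each of the 42 genes, sip53 minus siControl, grouped by role. Diamonds are the mean of the 3 times with its SE, coloured by call at an adjusted p under 0.05, and open symbols are the separate times; POLA1, PRIM1, POLD3, RFC3 and DBF4 lie at -0.61 or below, while POLA2, RFC2 and TYMS lie at 0.38 or above.

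Origin licensing genes split, with ORC1 higher and GMNN, ORC2 and ORC6 lower on average, out of 7 genes. GMNN encodes geminin, which binds CDT1 and blocks licensing outside G1. Its 9 siControl samples ran from 34.8 through a median of 56.3 to 62.3 CPM, and its 9 sip53 samples from 35.6 through 39.5 to 62.5 CPM. The arms overlapped, since the lowest siControl value came from 0 h replicate 2 and the highest sip53 value from 0 h replicate 1. The averaged log2 fold change of GMNN was -0.36 ± 0.11 (SE, adjusted p = 0.0149). ORC1, the largest ORC subunit, ran from 8.47 through 11.7 to 15.4 CPM in siControl and from 10.7 through 14 to 16.3 CPM in sip53. Its log2 fold change was 0.35 ± 0.12 (adjusted p = 0.0253), with overlapping arms. The falls of ORC2 (-0.20 ± 0.08, adjusted p = 0.0439) and ORC6 (-0.20 ± 0.08, adjusted p = 0.0444) were the smallest and least stable. ORC2 went from a median of 33.9 to 29.6 CPM and passed in 5 of 18 fits that each left out 1 library; ORC6 went from 54.1 to 46 CPM and passed in 6 of 18. The ORC1 call was lost without siControl 0 h replicate 3, 2 h replicate 3 or 8 h replicate 1, or sip53 8 h replicate 1 or 3, with adjusted p of up to 0.0577 over all alternatives. CDC6, CDT1 and ORC3 did not pass, at -0.17, 0.06 and 0.19. CDC6 passed as lower with both 0 h libraries that stood apart left out (-0.21, adjusted p = 0.019).

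Of the 6 subunits of the MCM ring, which unwinds DNA at the fork, MCM2 alone was called. Its siControl samples held 136, 99.7 and 109 CPM at 0 h, 125, 117 and 115 at 2 h, and 119, 122 and 109 at 8 h (replicates 1 to 3). Its sip53 samples held 141, 129 and 125 CPM at 0 h, 144, 144 and 143 at 2 h, and 146, 142 and 134 at 8 h. At 2 h and at 8 h all sip53 samples lay above all siControl samples, while at 0 h siControl replicate 1 lay among the sip53 samples. The averaged log2 fold change of MCM2 was 0.25 ± 0.06 (adjusted p = 0.00244), and the single times did not pass (0.20, 0.27 and 0.27). The 2 h and 8 h values of MCM2 passed with DESeq2 (adjusted p 0.0356 and 0.0419) and with upper-quartile scaling (0.0428 and 0.048). MCM2 shares up to 774 bases of exon with an antisense RNA, AC023593.1, and the counting is not stated to use strand. The other subunits, MCM3 to MCM7, lay between -0.17 and 0.12. No test of the difference between MCM2 and these subunits was made.

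Among the 8 genes that activate the helicase, DBF4 and MCM10 were lower on average and none was higher. DBF4 is the activating partner of the kinase CDC7, which phosphorylates the MCM ring. Its siControl samples held 55.1, 41.2 and 48.4 CPM at 0 h, 55.2, 51.9 and 46.5 at 2 h, and 56.7, 53.3 and 42.8 at 8 h. Its sip53 samples held 55.1, 26.2 and 28.8 CPM at 0 h, 32.4, 29.4 and 29.9 at 2 h, and 27.7, 41.3 and 25 at 8 h. Every sip53 sample except 0 h replicate 1 and 8 h replicate 2 lay at or below 32.4 CPM, and the arms did not overlap at 2 h or at 8 h. On average DBF4 differed by -0.61 ± 0.12 on the log2 scale (adjusted p = 0.000485), and at 0, 2 and 8 h by -0.39 ± 0.21, -0.74 ± 0.21 and -0.70 ± 0.21 (adjusted p 0.252, 0.0242 and 0.0417). Its partner CDC7 did not pass, at -0.15 ± 0.11 (adjusted p = 0.302). MCM10, which joins the helicase to the polymerases as forks start, ran from 53.1 through 73.3 to 80 CPM in siControl and from 42.1 through 54.7 to 70.9 CPM in sip53. Its averaged log2 fold change was -0.30 ± 0.08 (adjusted p = 0.00507). CDC45 and the 4 GINS genes lay between -0.03 and 0.13 and did not pass.

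In the polymerase alpha-primase complex, which makes every primer, POLA1 and PRIM1 were lower and POLA2 was higher. POLA1 (ENSG00000101868, chromosome X, 24693919 to 24996986 on GRCh38) encodes its catalytic polymerase subunit. In siControl POLA1 was at 62.8, 102 and 89.1 CPM at 0 h, 67.4, 83.7 and 70.5 at 2 h, and 88.8, 62.7 and 66.2 at 8 h. The sip53 values were 68.8, 51.4 and 43.8 CPM at 0 h, 45, 44 and 41.9 at 2 h, and 51.4, 50.9 and 37.9 at 8 h. Apart from sip53 0 h replicate 1, every sip53 sample lay below every siControl sample. For POLA1 the log2 fold changes at 0, 2 and 8 h were -0.63 ± 0.18, -0.76 ± 0.18 and -0.63 ± 0.18 (adjusted p 0.0294, 0.00728 and 0.0269), with -0.67 ± 0.10 over the 3 times (adjusted p = 2.81e-05).

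PRIM1 (ENSG00000198056, chromosome 12, 56731596 to 56752373 on GRCh38) encodes the catalytic primase subunit and fell by a similar amount at a lower level. In siControl PRIM1 was at 15, 6.16 and 11.1 CPM at 0 h, 15.8, 12.5 and 10.1 at 2 h, and 13.8, 15.5 and 10.1 at 8 h. With sip53 the samples held 9.68, 7.71 and 6.53 CPM at 0 h, 7.65, 8.21 and 7.67 at 2 h, and 6.22, 8.62 and 7.41 at 8 h. All sip53 samples lay at or below 9.68 CPM, and the only siControl sample there was 0 h replicate 2. On average PRIM1 differed by -0.66 ± 0.15 on the log2 scale (adjusted p = 0.00166), and at 0, 2 and 8 h by -0.44 ± 0.26, -0.70 ± 0.26 and -0.82 ± 0.26 (adjusted p 0.303, 0.0792 and 0.0488). PRIM2, the large primase subunit, was at 9.39 CPM or less in every sample and did not pass (-0.22 ± 0.12, adjusted p = 0.176).

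POLA2 (ENSG00000014138, chromosome 11, 65261762 to 65305589 on GRCh38), the accessory B subunit of the same complex, was higher. In siControl POLA2 was at 38, 26.9 and 27.6 CPM at 0 h, 30.1, 28.4 and 35.2 at 2 h, and 27.1, 30.9 and 26.1 at 8 h. Under sip53 they were 42.4, 39.8 and 40 CPM at 0 h, 38, 38.3 and 45 at 2 h, and 45.2, 34.8 and 37.3 at 8 h. At each time all sip53 samples lay above all siControl samples. For POLA2 the log2 fold changes at 0, 2 and 8 h were 0.40 ± 0.14, 0.37 ± 0.14 and 0.48 ± 0.14 (adjusted p 0.0802, 0.0883 and 0.0373), with 0.42 ± 0.08 over the 3 times (adjusted p = 0.000419). POLA2 shares up to 444 bases of exon with another gene model on its strand, AP000944.2, so reads could be split between them. PRIM1 likewise shares up to 101 bases with AC117378.1 on its strand and up to 123 with HSD17B6 on the opposite strand.

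Polymerase delta split as well. POLD3, a regulatory subunit that binds PCNA, was at 111, 101 and 117 CPM at 0 h, 89, 98.7 and 95.6 at 2 h, and 106, 102 and 92.8 at 8 h in siControl. The sip53 samples gave 106, 54.5 and 59 CPM at 0 h, 68.2, 65.3 and 48.2 at 2 h, and 63.9, 69.9 and 47.8 at 8 h. The sip53 0 h replicate 1 value lay inside the siControl range and every other sip53 value below it. On average POLD3 differed by -0.65 ± 0.11 on the log2 scale (adjusted p = 6.2e-05), and at 0, 2 and 8 h by -0.59 ± 0.18, -0.64 ± 0.18 and -0.73 ± 0.18 (adjusted p 0.0467, 0.0248 and 0.0159). POLD2, another accessory subunit, went from a siControl median of 149 CPM (135 to 181) to 182 CPM (139 to 190), a log2 fold change of 0.17 ± 0.06 (adjusted p = 0.0339). That call was kept in 11 of 18 fits that left out 1 library. It was lost without siControl 0 h replicate 3, 2 h replicate 2 or 3, or 8 h replicate 1, or sip53 0 h replicate 3, 2 h replicate 2 or 8 h replicate 1, with adjusted p of up to 0.4 over all alternatives. The catalytic subunits POLD1 and POLE and the epsilon subunit POLE2 did not pass, at -0.15, -0.03 and 0.12.

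In the clamp loader RFC, RFC3 and RFC1 were lower and RFC2, RFC4 and RFC5 were higher on average, so each of the 5 subunits was called. Of all genes tested, 18.5% were lower and 16.1% higher on average. RFC3 (ENSG00000133119, chromosome 13, 33818049 to 33966558 on GRCh38) was at 42, 29.4 and 36.3 CPM at 0 h, 38.1, 32.3 and 21.9 at 2 h, and 41.5, 40.9 and 25.6 at 8 h in siControl. After sip53 they were 36.1, 16.5 and 19.9 CPM at 0 h, 20.3, 16 and 18.4 at 2 h, and 16.5, 23.8 and 15.6 at 8 h. The arms overlapped at 0 h through sip53 replicate 1, and did not at 2 h or 8 h. For RFC3 the log2 fold changes at 0, 2 and 8 h were -0.57 ± 0.25, -0.75 ± 0.25 and -0.95 ± 0.25 (adjusted p 0.15, 0.0543 and 0.0213), with -0.76 ± 0.15 over the 3 times (adjusted p = 0.000325). RFC1, the large subunit and the most abundant of the 5, ran from 174 through 220 to 242 CPM in siControl and from 147 through 172 to 231 CPM in sip53 (-0.29 ± 0.08, adjusted p = 0.00573).

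RFC2 (ENSG00000049541, chromosome 7, 74231499 to 74254458 on GRCh38) moved the other way. In siControl RFC2 was at 33.7, 30.5 and 28.5 CPM at 0 h, 34.6, 32.2 and 27.8 at 2 h, and 32, 25.2 and 34 at 8 h. In the sip53 arm the values were 37.2, 37.4 and 46.6 CPM at 0 h, 41.7, 38.4 and 41.7 at 2 h, and 41.4, 38.2 and 39 at 8 h. All 9 sip53 samples lay above all 9 siControl samples, sip53 0 h replicate 1 included. RFC2 was the only gene of the 42 whose arms did not overlap, and the share of all genes tested without overlap was not counted. The log2 fold change of RFC2 was 0.38 ± 0.08 on average (adjusted p = 0.000522), with 0.38, 0.37 and 0.38 at 0, 2 and 8 h, none of which passed alone (adjusted p 0.0681 to 0.071). RFC2 did pass with DESeq2 at 0 h and 8 h (adjusted p 0.0461 and 0.0478), and at 2 h with the groups of the contrast only (0.0381). RFC4 ran from 44.1 through 53.9 to 61.3 CPM in siControl and from 52 through 62.1 to 71.6 CPM in sip53 (0.23 ± 0.07, adjusted p = 0.0118). RFC5 ran from 25.4 through 28.2 to 36.1 CPM and from 29.7 through 35.5 to 37.9 CPM (0.24 ± 0.08, adjusted p = 0.0217). The RFC5 call was lost with both 0 h libraries that stood apart left out (0.20 ± 0.08, adjusted p = 0.0558). The clamp PCNA, the flap nuclease FEN1 and the ligase LIG1 did not pass, at 0.16, 0.14 and 0.02.

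**Figure D2:**
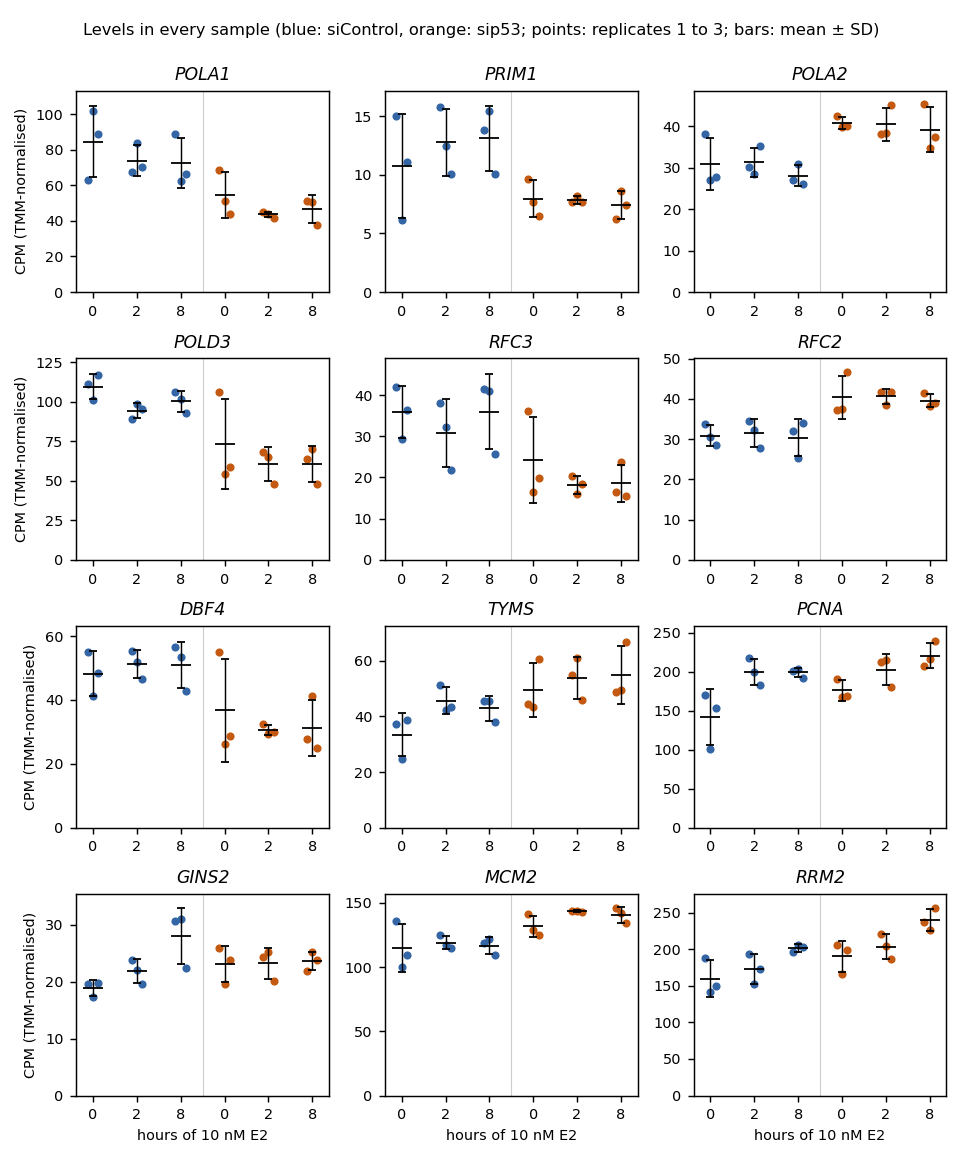
TMM-normalised CPM of 12 replication genes in every sample (y axis, from 0) against hours of 10 nM E2 (x axis), siControl on the left and sip53 on the right of each panel; points are replicates 1 to 3 and bars the mean ± SD of 3 samples. For RFC2 all sip53 points lie above all siControl points, and for POLA1, POLD3, RFC3 and DBF4 the sip53 0 h replicate 1 point lies above the other sip53 points.

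Of the 4 nucleotide supply genes, TYMS and RRM2 were higher on average. TYMS, thymidylate synthase, was at 37.2, 24.5 and 38.7 CPM at 0 h, 51.2, 42.1 and 43.5 at 2 h, and 45.5, 45.5 and 37.8 at 8 h in siControl. The corresponding sip53 values were 44.5, 43.2 and 60.6 CPM at 0 h, 54.7, 60.9 and 45.9 at 2 h, and 48.6, 49.3 and 66.8 at 8 h. The arms did not overlap at 0 h or at 8 h and did at 2 h. On average TYMS differed by 0.38 ± 0.10 on the log2 scale (adjusted p = 0.00406), and at 0, 2 and 8 h by 0.56 ± 0.17, 0.24 ± 0.17 and 0.36 ± 0.17 (adjusted p 0.0444, 0.402 and 0.195). TYMS shares up to 719 bases of exon with ENOSF1 on the opposite strand, and without a stated strand setting their reads cannot be told apart.

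RRM2, the S-phase subunit of ribonucleotide reductase, was at 188, 141 and 150 CPM at 0 h, 193, 153 and 173 at 2 h, and 196, 206 and 203 at 8 h in siControl. With sip53 the values were 206, 166 and 199 CPM at 0 h, 220, 204 and 186 at 2 h, and 237, 226 and 256 at 8 h. The arms overlapped at 0 h and 2 h and did not at 8 h. The log2 fold change of RRM2 was 0.25 ± 0.07 on average (adjusted p = 0.00568), and 0.25, 0.23 and 0.25 at the single times, which did not pass. With the length and GC offset plus replicate block RRM2 passed at 0, 2 and 8 h (adjusted p 0.0406, 0.0453 and 0.043). RRM2 shares up to 159 bases of exon with AC007240.1 on its strand. The large subunit RRM1 and thymidine kinase TK1 did not pass, at -0.08 and 0.03.

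The single-time calls rested on few libraries. At 0 h none of the 42 genes passed without siControl replicate 2 or 3 or sip53 replicate 2 or 3. Without siControl 0 h replicate 1, 8 passed (7 higher, 1 lower), and without sip53 0 h replicate 1, 6 passed (2 higher, 4 lower). At 2 h none passed without siControl replicate 2, and 1 passed without sip53 replicate 3. At 8 h none passed without siControl replicate 1 or sip53 replicate 3, 1 passed without siControl replicate 2 and 2 without sip53 replicate 1. The shares of all genes called in these fits are not given here, so these counts cannot be set against them. Over every alternative, the log2 value of POLA1 stayed between -0.82 and -0.46 at 0 h, -0.83 and -0.58 at 2 h, and -0.72 and -0.46 at 8 h. Of the 19 averaged calls, 15 were kept in all 18 fits that left out 1 library. Those 15 are all but ORC1, ORC2, ORC6 and POLD2.

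The library sip53 0 h replicate 1 was the highest of the 9 sip53 samples for 8 of the 10 genes that were lower on average: POLA1, POLD3, RFC3, DBF4, PRIM1, MCM10, RFC1 and GMNN. For all 10 it lay at or above the lowest siControl sample. For 6 of the 9 higher genes it lay at or below the highest siControl sample. The same library held 195 CPM of CDK6, a G1 kinase gene, against 68 to 120 CPM in the other sip53 samples and 176 to 264 CPM in siControl. Its ATAD5 value (62.1 CPM) also lay inside the siControl range (59 to 84.8 CPM). Other genes lay outside that range on the sip53 side: CDKN1A at 12.4 CPM (siControl 18.8 to 26.7), RBL1 at 37.6 CPM (41.8 to 52.2) and RPA1 at 36.9 CPM (23.8 to 33). The part of this library in the 0 h results was not tested beyond leaving it out.

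Promoters of 38 of the 42 genes were matched in RefSeq (windows from 250 bases before to 50 after an annotated start, GRCh38.p14), 49 windows in all. MCM4, MCM5, POLD3 and GINS4 had no entry. The E2F consensus was searched as its octamers TTTCCCGC, TTTCGCGC, TTTGCCGC and TTTGGCGC on both strands. At least 1 occurred in 20 of 38 genes (52.6%), against 4% of 27305 genes with a window; by window the shares were 40.8% and 3.3%. The octamers were in 3 of 9 genes that were higher in sip53, in 3 of 9 that were lower, and in 14 of 20 that were not called. CCAAT was in 60.5% of the replication genes and 39.7% of all genes. TTTGAA, the letters of the CHR element of late cell-cycle genes, was in 5.3% and 18.2%. The palindromic estrogen response element was in 0 of 38 and in 0.1% of all genes. A match is a description of letters and not a shown binding site, and no match says only that these letters are not in this window.

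The windows of 5 subunits that moved in opposite directions within a complex are printed to show this. POLA1 and PRIM1 (lower) belong with POLA2 (higher) to polymerase alpha-primase, and RFC3 (lower) and RFC2 (higher) to the clamp loader. The windows are chrX:24693668-24693967 (+) for POLA1, chr12:56752274-56752573 (-) for PRIM1, chr11:65261712-65262011 (+) for POLA2, chr13:33817899-33818198 (+) for RFC3 and chr7:74254350-74254649 (-) for RFC2. Each reads 5′ to 3′ on the gene's strand, with E2F octamers on either strand in capitals.
POLA1: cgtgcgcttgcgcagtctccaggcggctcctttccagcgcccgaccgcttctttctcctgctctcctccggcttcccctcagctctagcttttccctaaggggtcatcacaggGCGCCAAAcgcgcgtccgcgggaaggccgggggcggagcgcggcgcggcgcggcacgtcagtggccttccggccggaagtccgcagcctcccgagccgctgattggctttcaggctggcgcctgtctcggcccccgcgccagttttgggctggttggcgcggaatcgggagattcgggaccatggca
PRIM1: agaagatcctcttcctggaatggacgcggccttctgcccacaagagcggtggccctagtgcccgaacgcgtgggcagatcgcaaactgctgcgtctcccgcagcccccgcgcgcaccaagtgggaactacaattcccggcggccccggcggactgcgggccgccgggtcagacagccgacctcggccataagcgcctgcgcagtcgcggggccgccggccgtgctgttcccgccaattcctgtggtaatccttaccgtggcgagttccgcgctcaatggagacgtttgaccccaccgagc
POLA2: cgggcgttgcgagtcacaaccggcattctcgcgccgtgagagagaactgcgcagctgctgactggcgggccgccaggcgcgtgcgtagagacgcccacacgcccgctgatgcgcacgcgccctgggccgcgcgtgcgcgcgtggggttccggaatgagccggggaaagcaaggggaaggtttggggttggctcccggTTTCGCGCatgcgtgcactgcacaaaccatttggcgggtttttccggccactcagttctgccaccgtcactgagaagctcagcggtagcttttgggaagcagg
RFC3: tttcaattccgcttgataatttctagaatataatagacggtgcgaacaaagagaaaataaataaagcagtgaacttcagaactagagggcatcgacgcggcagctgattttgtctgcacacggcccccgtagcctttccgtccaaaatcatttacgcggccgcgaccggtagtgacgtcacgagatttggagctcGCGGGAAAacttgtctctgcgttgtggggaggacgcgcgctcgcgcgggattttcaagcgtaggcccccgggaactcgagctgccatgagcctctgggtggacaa
RFC2: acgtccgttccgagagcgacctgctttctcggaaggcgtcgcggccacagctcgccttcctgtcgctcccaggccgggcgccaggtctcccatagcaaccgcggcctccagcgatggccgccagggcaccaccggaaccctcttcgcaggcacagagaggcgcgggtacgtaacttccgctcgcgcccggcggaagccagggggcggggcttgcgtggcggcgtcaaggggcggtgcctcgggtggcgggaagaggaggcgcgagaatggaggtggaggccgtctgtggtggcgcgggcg
Counted from the annotated start, an octamer begins at position -137 in POLA1, -53 in POLA2 and -55 in RFC3, and the windows of PRIM1 and RFC2 hold none. POLA1 and POLA2, which moved in opposite directions, each held 1. The GC content of the 5 windows was 69.3%, 67.3%, 66%, 53% and 72%.

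Among the 42, the lower genes had transcripts of lower GC content, while the higher genes and the uncalled ones had similar medians. The part of base composition in these changes was not tested beyond an offset in the fit. The 10 lower genes had a median transcript GC content of 40.2% to 47.2%, with a median over genes of 42.3%. The 9 higher genes had 44.5% to 59% (median 51.2%) and the 23 others 38% to 65.3% (median 51.6%). Over all genes tested the medians were 44.4% for lower, 50.3% for uncalled and 54.1% for higher genes. When length and GC content were taken out as an offset in the fit, 13 of the 19 calls were kept and none reversed. The 6 lost were MCM2, POLD2, RFC1, ORC2, ORC6 and GMNN. With the offset 11 of the 42 genes were higher and 6 lower. The shares of all genes called with the offset are not given here, so these counts cannot be set against them. The splits within polymerase alpha-primase and RFC remained: POLA1 was at -0.54 ± 0.10, PRIM1 at -0.49 ± 0.14 and POLA2 at 0.43 ± 0.08. RFC3 was at -0.57 ± 0.13 and RFC2 at 0.36 ± 0.07, while RFC1 no longer passed (-0.13 ± 0.06, adjusted p = 0.122). By call, the splits within polymerase delta and origin licensing did not remain. POLD2 was at 0.07 ± 0.06 (adjusted p = 0.4), GMNN at -0.21 ± 0.09 (0.096), ORC6 at -0.10 ± 0.07 (0.287) and ORC2 at -0.04 ± 0.08 (0.762). PCNA (0.29 ± 0.07, adjusted p = 0.00256), GINS1, ORC3 and MCM4 passed as higher with the offset. PCNA also passed with upper-quartile scaling (adjusted p = 0.0479) and without the filter on low counts (0.0405), and MCM4 with DESeq2 (0.0355) and upper-quartile scaling (0.031). Of the calls at single times, the offset ended those of DBF4 at 2 h (-0.54, adjusted p = 0.0593) and of DBF4 (-0.55, 0.0643), PRIM1 (-0.66, 0.0924) and POLA1 (-0.50, 0.0653) at 8 h. With it POLD3 passed at all 3 times (adjusted p 0.0464, 0.0462 and 0.0227) and POLA1 at 0 h and 2 h (0.0422 and 0.026).

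**Figure D3:**
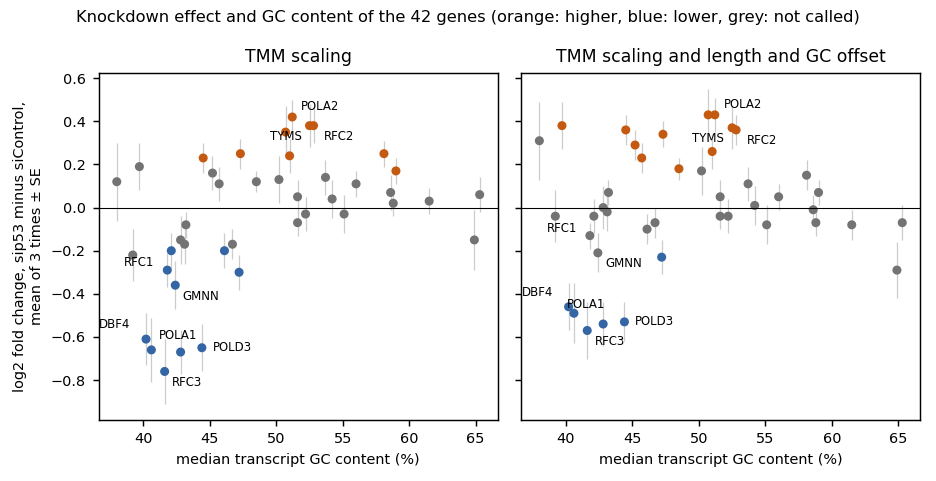
Log2 fold change, sip53 minus siControl averaged over the 3 times (y axis, with SE), against median transcript GC content in percent (x axis) for the 42 genes, without (left) and with (right) an offset for length and GC content. The lower genes lie between 40.2% and 47.2% GC; POLA1, PRIM1, POLD3, RFC3, DBF4 and MCM10 stay lower with the offset, while RFC1 and GMNN no longer pass.

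The second comparison asked how E2 changed the replication genes in each arm. After 8 h of E2 in siControl, PCNA and GINS2 were higher than at 0 h, 2 of 42 genes (1.78% of all genes were higher), and none was lower. PCNA, the sliding clamp, was at 170, 101 and 153 CPM at 0 h, 217, 199 and 183 at 2 h, and 201, 204 and 192 at 8 h. All 3 values at 8 h lay above all 3 at 0 h, of which replicate 2 was by far the lowest. The log2 fold change of PCNA was 0.49 ± 0.13 at 8 h (adjusted p = 0.0488) and 0.50 ± 0.13 at 2 h (0.134). In sip53 PCNA was at 191, 168 and 169 CPM at 0 h, 213, 215 and 180 at 2 h, and 207, 216 and 239 at 8 h, a log2 fold change of 0.33 ± 0.13 at 8 h (adjusted p = 0.234). With both 0 h libraries that stood apart left out, the arm in which PCNA was called switched: it was at 0.38 ± 0.10 in sip53 (adjusted p = 0.0474) and at 0.31 ± 0.10 in siControl (0.169). The 2 h value of PCNA in siControl passed with DESeq2 (adjusted p = 0.0273) and without the filter (0.00382).

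GINS2, a subunit of the GINS complex, was at 19.6, 17.3 and 19.7 CPM at 0 h, 23.7, 22.1 and 19.6 at 2 h, and 30.7, 30.9 and 22.3 at 8 h in siControl. The 8 h values lay above the 0 h values, with replicate 3 well under the other two. GINS2 rose by log2 0.56 ± 0.15 at 8 h (adjusted p = 0.0474), and its 2 h value was 0.21 ± 0.15 (0.653). In sip53 GINS2 was at 25.9, 19.6 and 23.7 CPM at 0 h, 24.3, 25.1 and 20.1 at 2 h, and 21.9, 25.1 and 23.8 at 8 h, with a log2 fold change of 0.03 ± 0.15 at 8 h (adjusted p = 0.955). The difference between the arms in the 8 h response of GINS2 was -0.53 ± 0.21 (adjusted p = 0.999; 2 SE either side, -0.96 to -0.11), and that of PCNA was -0.17 ± 0.19 (0.999; -0.54 to 0.21). Neither passed.

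Both E2 calls depended on single libraries. The PCNA call was lost without siControl 0 h replicate 2 or 3 or any 8 h replicate, and the GINS2 call without siControl 0 h replicate 2 or 3 or 8 h replicate 1 or 2. Over all alternatives the log2 value of PCNA ran from 0.30 to 0.65 (adjusted p of up to 0.203) and that of GINS2 from 0.49 to 0.70 (up to 0.211). The GINS2 adjusted p was 0.0503 with the length and GC offset.

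The other E2 comparisons called none of the 42 genes by edgeR. After 2 h in siControl 0.228% of all genes were called, and after 8 h against 2 h 1.02%. In sip53 the shares of all genes called were 0.307% at 2 h, 2.74% at 8 h and 1.38% for 8 h against 2 h. Of the 42, 4, 4, 1, 6 and 5 had an unadjusted p under 0.05 in these comparisons, in that order. Of all 15318 genes tested, 1748, 1859, 1139, 2184 and 1892 did. DESeq2 called 1, 0, 0, 0 and 1 of the 42, and 127, 330, 90, 609 and 365 of all genes. The comparisons of 2 h and 8 h with 0 h in an arm share the 0 h libraries. For the difference between the arms, edgeR called 0.0% of all genes at 2 h and 0.0% at 8 h. There 451 and 583 of all genes, and 0 and 1 of the 42, had an unadjusted p under 0.05, and DESeq2 called 1 and 2 of all genes and none of the 42.

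In sip53, POLD1, the catalytic subunit of polymerase delta, had the lowest adjusted p of the 42 genes at 8 h. It was at 14.1, 15.5 and 20.1 CPM at 0 h, 23.1, 16.3 and 13.1 at 2 h, and 13.4, 7.38 and 7.31 at 8 h. The 3 values at 8 h lay below all values at 0 h, and replicate 1 at 8 h lay just above replicate 3 at 2 h. Its log2 value was -0.82 ± 0.25 for 8 h against 0 h (adjusted p = 0.0877) and -0.90 ± 0.25 against 2 h (0.0777). Whether it passed depended on the fit. POLD1 was called lower against 2 h by DESeq2 (adjusted p = 0.0398) and without the filter on low counts (0.00161), and against 0 h without the filter (0.00526) and with the length and GC offset plus replicate block (0.0459). Without sip53 8 h replicate 1 it passed in both comparisons, at -1.19 ± 0.26 against 0 h (adjusted p = 0.0158) and -1.26 ± 0.26 against 2 h (0.0163). POLD1 shares up to 133 bases of exon with AC020909.1 on its strand. In siControl the 8 h value of POLD1 was -0.38 ± 0.25 (adjusted p = 0.477), and the difference between the arms was -0.44 ± 0.35 (0.999). RRM2 was similar in both arms, at 0.34 ± 0.11 in siControl (adjusted p = 0.118) and 0.33 ± 0.11 in sip53 (0.136), neither of which passed. Without siControl 0 h replicate 1 the siControl value of RRM2 was 0.47 ± 0.11 and passed (adjusted p = 0.0202). MCM2 lay at 0.02 ± 0.10 and 0.09 ± 0.10, and its 2 SE ranges were -0.19 to 0.22 and -0.11 to 0.30.

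**Figure D4:**
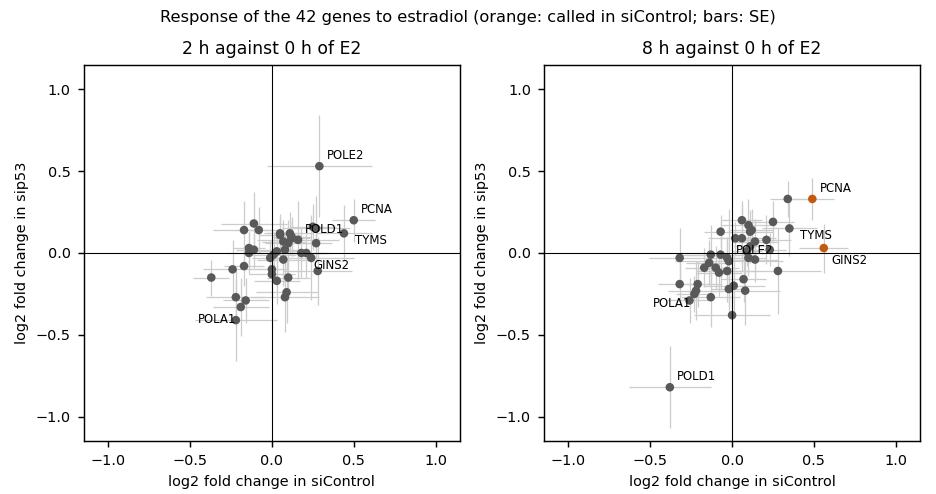
Log2 fold change after E2 in sip53 (y axis) against siControl (x axis) for the 42 genes, at 2 h (left) and 8 h (right) against 0 h, with SE bars; both panels use the same 0 h libraries. PCNA and GINS2, in orange, were called at 8 h in siControl at 0.49 and 0.56, and POLD1 lies lowest at 8 h in sip53 at -0.82.

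Genes that act beside the 42 also split after the knockdown. Of 34 other replisome and origin genes, 13 were higher and 9 lower on average (38.2% and 26.5%, against 16.1% and 18.5% of all genes tested), with a median log2 value of 0.10 against 0.01. RPA1, the large subunit of the single-strand binding protein RPA, ran from 23.8 through 28 to 33 CPM in siControl and from 36.6 through 37.6 to 49.1 CPM in sip53, with no overlap (0.50 ± 0.08, adjusted p = 4.29e-05). RPA2 and RPA3 were higher with it (0.31 ± 0.09 and 0.28 ± 0.08), as were POLE3, a small polymerase epsilon subunit (0.29 ± 0.05), and the ribonuclease H2 subunit RNASEH2C (0.40 ± 0.07). ATAD5, which unloads PCNA after replication, fell most, from a siControl median of 74.5 CPM (59 to 84.8) to 29.2 CPM (22.6 to 62.1), a log2 fold change of -1.08 ± 0.13 (adjusted p = 1.85e-06). It was lower at all 3 times, at -0.99, -1.24 and -1.0. DBF4B, a second activator of CDC7, was at -0.93 ± 0.15 (adjusted p = 7.08e-05). TOPBP1, which helps to assemble the active helicase, was at -0.42 ± 0.07, WDHD1, which ties polymerase alpha to the fork, at -0.61 ± 0.11, and the nuclease DNA2 at -0.70 ± 0.15. In the E2 comparisons 2 to 4 of the 34 had an unadjusted p under 0.05, against 1139 to 2583 of all genes tested. The lowest adjusted p of each comparison among the 34 was 0.146 to 0.525.

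Of 25 genes that control the G1/S step, 6 were higher and 7 lower on average (24% and 28%, against 16.1% and 18.5% of all genes), with a median log2 value of 0.06. The activator E2F1 was higher, from a siControl median of 53.3 CPM (46.6 to 61.7) to 72.4 CPM (62.1 to 81.5), with no overlap (0.40 ± 0.07, adjusted p = 0.000113). E2F2 was higher as well (0.52 ± 0.14, adjusted p = 0.00717). The repressors E2F7 (-0.79 ± 0.13, adjusted p = 4.38e-05) and E2F8 (-0.70 ± 0.14, adjusted p = 0.00044) fell. RBL1, the pocket protein p107, fell from a median of 48.2 to 30.5 CPM without overlap (-0.60 ± 0.07, adjusted p = 1.22e-06), as did CDKN1A, which encodes the cell cycle inhibitor p21, from 22.2 to 11.7 CPM (-0.97 ± 0.10, adjusted p = 2.34e-07). CDK6 fell from a median of 218 to 109 CPM (-1.0 ± 0.10, adjusted p = 2.37e-07), and FBXO5, an inhibitor of the anaphase-promoting complex, from 28.2 to 14.5 CPM (-0.82 ± 0.13). CDKN1B, the p27 inhibitor, was higher after the knockdown (0.36 ± 0.08, adjusted p = 0.000809). It was also higher after 8 h of E2 in siControl (0.50 ± 0.13, adjusted p = 0.0408). In sip53 the CDKN1B mean went from 78.2 CPM at 0 h to 95.7 CPM at 8 h, without a call. In sip53, the cyclin genes CCNE2 (0.69 ± 0.18, adjusted p = 0.0356) and CCND1 (0.40 ± 0.11, adjusted p = 0.0385) were higher after 8 h of E2. CDK6 was lower there (-0.65 ± 0.18, adjusted p = 0.0481). The siControl means moved the same way from 0 h to 8 h without a call. They went from 16.8 to 21.8 CPM for CCNE2, 528 to 619 for CCND1 and 235 to 202 for CDK6. For the difference between the arms edgeR called no gene. Without sip53 0 h replicate 1 the CDK6 value in sip53 was -0.35 (adjusted p = 0.336), and it also failed to pass without sip53 8 h replicate 1 or 3. The CCNE2 call was kept only without sip53 8 h replicate 3 and the CCND1 call only without sip53 0 h replicate 1, of 6 fits each that left out 1 library, with adjusted p of up to 0.204 and 0.164. The CDKN1B call after E2 was lost without siControl 0 h replicate 2 (0.35, adjusted p = 0.206) or 8 h replicate 2 or 3.

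**Figure D5:**
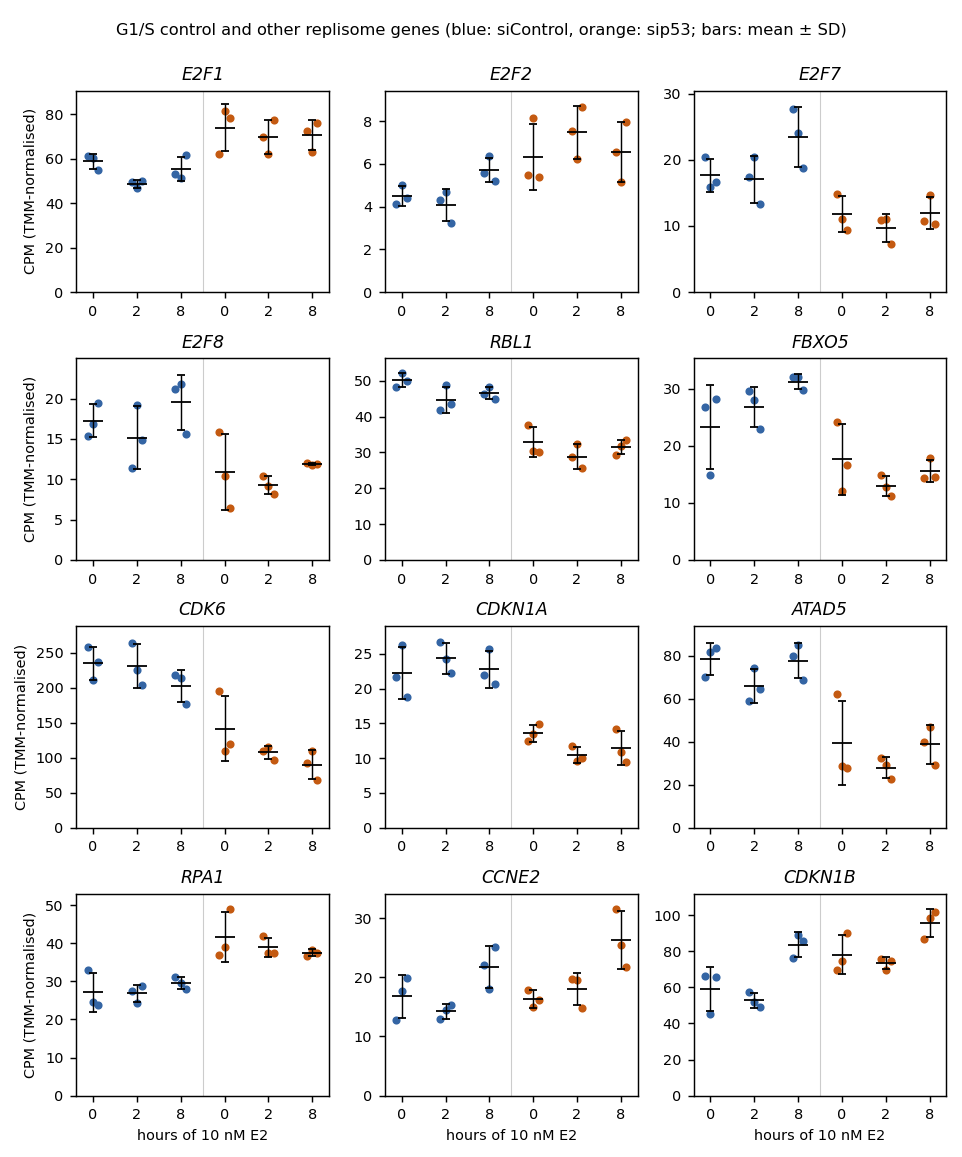
TMM-normalised CPM (y axis, from 0) of 12 genes of G1/S control and the wider replisome in every sample, against hours of 10 nM E2 (x axis), siControl on the left and sip53 on the right; points are replicates 1 to 3 and bars the mean ± SD of 3 samples. E2F1 and RPA1 lie higher and RBL1 and CDKN1A lower in sip53 without overlap, and sip53 0 h replicate 1 is the highest sip53 point for CDK6 and ATAD5.

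Of 19 other nucleotide supply genes, 6 were higher and 2 lower on average (31.6% and 10.5%, against 16.1% and 18.5% of all genes), with a median log2 value of 0.14. DCTPP1, which clears modified deoxycytidine triphosphates, was higher (0.41 ± 0.07, adjusted p = 9.48e-05), as was SHMT1, which feeds thymidylate synthesis (0.58 ± 0.15, adjusted p = 0.00439). DUT, which turns dUTP into the precursor of thymidylate, fell (-0.37 ± 0.08, adjusted p = 0.00108), and so did RRM2B, the ribonucleotide reductase subunit used outside S phase (-0.33 ± 0.13, adjusted p = 0.0434). The RRM2B call was kept in 8 of 18 fits that left out 1 library, with adjusted p of up to 0.351 over all alternatives. Of 25 mitosis genes 2 were higher and 10 lower (8% and 40%, beside the same shares of all genes), with a median of -0.14. CENPE, a kinetochore motor, fell from a median of 225 to 131 CPM (-0.77 ± 0.07, adjusted p = 1.09e-07) and ASPM, a spindle pole protein, from 530.0 to 277 CPM (-0.81 ± 0.11, adjusted p = 1.13e-05). CENPA, the centromeric histone, was higher (0.42 ± 0.10, adjusted p = 0.00176) and so was PLK1 (0.16 ± 0.05, adjusted p = 0.0229), whose call was lost with the length and GC offset. After E2, CENPA was called higher in siControl at 2 h (0.81 ± 0.17, adjusted p = 0.0488) and 8 h (0.78 ± 0.17, 0.014). AURKA (-0.43 ± 0.11, adjusted p = 0.0281) and CENPE (-0.47 ± 0.13, 0.0439) were called lower in sip53 at 8 h. Means of the other arm moved the same way without a call. Each call was lost when single libraries were left out, for CENPA siControl 0 h replicate 2, and for AURKA and CENPE sip53 0 h replicate 1.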

How the data were processed

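PEO1 cells of 6 groups of 3 samples were profiled by 3′ mRNA sequencing. The authors deposited expected counts per gene, already whole numbers, so rounding moved none. Per the submitters' processing notes they used cutadapt, Bowtie2, RSEM 1.3.3, MultiQC and build hg19, with an annotation not given in the sources used here. Rows (57736) were named through GENCODE v29 transcripts, an annotation of GRCh38. Rows without a name held 0.635% of counts, and those that passed the filter on low counts are among the 15318 genes tested. Coordinates printed are on GRCh38.

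Counts were tested with edgeR 4.0.16 in R 4.3.3: filterByExpr (minimum count 10), TMM, and a quasi-likelihood fit to all 18 samples with 1 coefficient per group and 12 contrasts. A gene was called at a Benjamini-Hochberg adjusted p under 0.05 over the 15318 genes tested. SEs follow from the fold change and its F statistic. The script was tested on simulated counts.

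The 42 genes and the other lists were chosen with earlier results of these data known. Genes called at a single time or with E2, and PCNA, MCM2, RRM2 and RFC2, are given sample by sample, the other called genes by the lowest, median and highest of 9 samples, and the rest by counts. No correlation between genes over samples is given, since the arms differed on the first principal component, with sip53 0 h replicate 1 between them. Some genes, the targeted one included, are not reported here. Alternatives were DESeq2 1.42.0, upper-quartile scaling, no filter, the groups of a contrast alone, a replicate block, a length and GC offset, both together, and leaving out each library.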

Additional observations from a re-analysis of the deposited data

How the results depend on the processing

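No averaged or single-time call reversed under any alternative, and 11 of the 33 calls, all averaged, were kept in every one. The number of the 42 genes called was most stable for the average over times (19 as reported, 17 to 19 under the settings, 15 to 20 without 1 library). At 0 h the 3 calls became 5 with the length and GC offset with replicate block, 0 with the groups of the contrast only, and 7 when both libraries that stood apart were left out, a choice made after seeing the data; without 1 library there were 0 to 8. At 2 h the 3 calls became 5 with DESeq2, 5 without the filter on low counts, 5 with the replicate block, 5 with the offset and block together and 12 with the groups of the contrast only, and 0 to 3 without 1 library. At 8 h there were 6, of which the length and GC offset ended DBF4, PRIM1 and POLA1, while it added RFC4 (0.45, adjusted p = 0.0261). DESeq2 added RFC1, MCM2 and RFC2 at 8 h, and upper-quartile scaling added MCM2 and RFC2. RFC1 was added without the filter and with the groups of the contrast only, and RRM2 and RFC4 with the offset and block together. Without 1 library 0 to 7 passed at 8 h. For E2 at 8 h in siControl the 2 calls became 1 with the replicate block, 1 with the length and GC offset, 1 with both, 0 with the groups of the contrast only and 0 when both libraries that stood apart were left out, and 0 to 3 without 1 library. For E2 at 2 h in siControl 0 became 1 (PCNA) with DESeq2 and 1 without the filter, and 0 to 1 without 1 library. In sip53, 8 h against 0 h went from 0 to 1 (POLD1) without the filter, 1 (POLD1) with the offset and block together and 1 (PCNA) without both libraries that stood apart, and 0 to 1 without 1 library; 8 h against 2 h went from 0 to 1 (POLD1) with DESeq2 and 1 without the filter, and 0 to 1 without 1 library. Fits that left out samples had fewer to estimate from. For the other changes the cause was not tested. Except for some DESeq2 fits, the shares of all genes called under the alternatives are not given here. These counts of the 42 therefore cannot be set against them. Same-numbered samples did not deviate together (correlation -0.145 to 0.209, over 0.1 in 3 of 45 pairs). The labels do not say whether they were paired, and these correlations cannot settle it, so the replicate block is given only as an alternative. With 3 samples a group, averaged values as far from 0 as -0.17 ± 0.07 for CDC6 (adjusted p = 0.0677) and 0.12 ± 0.05 for MCM4 (0.077) did not pass.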
